A study of Mus musculus with 6 samples.

Results

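The 8 genes Tnf, Tnfrsf1a, Tnfrsf1b, Il10, Il10ra, Il12a, Il12b and Il23a were followed in the lungs of mice given endotoxin. They encode tumour necrosis factor (TNF) and its receptors, interleukin-10 and the ligand-binding chain of its receptor, and the chains of interleukin-12 and interleukin-23. The genes were chosen by symbol, with earlier results of these data known, and found through the RefSeq transcript of each array probe. All 8 had a probe, with 11 probes between them, and 7 passed the filter on dim probes, out of 17514 named genes and 32447 features tested in all. A feature is a named gene or a single unnamed probe.

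The 6 animals were male C57BL6 mice aged 10 weeks. Every mouse was fasted for 16 h and then received lipopolysaccharide (LPS), the outer membrane component of Gram-negative bacteria, by intraperitoneal injection at 20 mg/kg. At 3 h and again at 24 h, 3 mice received recombinant anti-thrombin at 750 IU/kg and the other 3 received saline, and lung RNA was taken at 30 h. Anti-thrombin is the plasma protein that inhibits thrombin and other clotting proteases. Both groups carried LPS, and mice without LPS were not analysed here, so each value compares anti-thrombin with saline under endotoxin at a single time. Each array measured 1 mouse, so n counts mice.

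TNF is made early by macrophages and other myeloid cells that sense LPS, and it acts through a widely expressed receptor, TNFR1, and a more restricted one, TNFR2. Interleukin-10 is made by myeloid and lymphoid cells in the same response and restrains it, acting through STAT3 to lower the output of TNF and interleukin-12. Interleukin-12 is the pair of the p35 chain (Il12a) and the p40 chain (Il12b), and interleukin-23 is the pair of the p19 chain (Il23a) and the same p40 chain.

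On each array 69.9% to 72.1% of probes were detected well above background, with no saturated spot. On the leading principal component (51.9% of the variance) the anti-thrombin mice lay between 24.9 and 49.5, saline mouse 2 at 7.86, saline mouse 1 at -48.3 and saline mouse 3 at -62.4, so saline mouse 2 stood apart from its group and nearer the treated mice. Results that rest on this mouse are given with and without it. The lung markers Ager, Scgb1a1 and Sftpc, with the other 7 lung genes listed, were all detected, and the summed lung marker level ran from 1808 to 1927 in saline mice and from 1665 to 1936 in anti-thrombin mice. A summed level is the sum of linear signals, each as a multiple of the 75th percentile of its array.

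Promoters of the ligand Tnf, of its receptor Tnfrsf1a and of Il12b are shown because these genes differ in their matches to the letters searched. They are the 250 bases before the start of transcription in RefSeq, build GRCm38.p6. Capitals mark matches to the NF-kB consensus GGGNNNNNCC, the site class of the factor that LPS activates, searched on both strands. The Tnf sequence lies at chr17:35202008-35202257 on the minus strand, the Tnfrsf1a sequence at chr6:125349473-125349722 on the plus strand and the Il12b sequence at chr11:44399813-44400062 on the plus strand.
Tnf: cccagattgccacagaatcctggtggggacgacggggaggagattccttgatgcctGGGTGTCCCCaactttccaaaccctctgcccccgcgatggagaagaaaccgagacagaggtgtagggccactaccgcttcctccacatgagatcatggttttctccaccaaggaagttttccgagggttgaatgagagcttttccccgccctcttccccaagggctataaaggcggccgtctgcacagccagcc
Tnfrsf1a: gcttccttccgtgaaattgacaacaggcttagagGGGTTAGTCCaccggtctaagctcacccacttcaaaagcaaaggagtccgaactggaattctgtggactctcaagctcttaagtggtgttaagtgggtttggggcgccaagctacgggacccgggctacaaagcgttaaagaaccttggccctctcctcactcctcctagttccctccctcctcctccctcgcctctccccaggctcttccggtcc
Il12b: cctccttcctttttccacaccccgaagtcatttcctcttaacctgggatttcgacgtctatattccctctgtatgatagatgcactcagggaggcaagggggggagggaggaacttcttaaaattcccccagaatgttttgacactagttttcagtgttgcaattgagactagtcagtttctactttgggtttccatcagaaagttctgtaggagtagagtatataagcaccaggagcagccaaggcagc

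The Tnf window held 1 such stretch, 194 to 185 bases before the start, which matched on both strands. The Tnfrsf1a window held 1 match, 216 to 207 bases before the start, and these letters are not in the Il12b window. A site with other letters would be missed, a match need not be bound, and binding was not measured. The Tnfrsf1b window held 3 overlapping matches, and of the 2 starts of Il12a the second held 2 overlapping matches. Among all 32851 promoter windows of 27025 genes, 45.8% held the NF-kB letters, so a match is common. The core of the myeloid factor PU.1, GAGGAA, was found once in Tnf, once in Tnfrsf1b and 2 times in Il12b, against 23.3% of all windows. The interferon response half-site GAAANNGA was found once each in Tnf, Tnfrsf1a, Tnfrsf1b and Il12b, against 18.1% of all windows. No window of these genes held TGANTCA, the AP-1 site (6.75% of all windows), or TGACG, the cAMP response core (17.8%). Sequences were matched for 5 of the 8 genes. Il10, Il10ra and Il23a had no entry.

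Signals below are log2 processed intensities less the 75th percentile of the array, so 0 is the 75th percentile. A value is compared between mice for the same probe and is not set against the value of another gene. Tnf and Il10 were the genes with the widest gap between groups, each with a mean about 1 log2 unit higher after anti-thrombin. The receptors TNFR1 and IL-10R alpha had differences near 0, the TNFR2, p35 and p40 transcripts had smaller positive differences whose 95% intervals include 0, and p19 was not well above background in any mouse.

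The Tnf signal was -0.65, 0.33 and -0.68 in saline mice 1, 2 and 3 and 0.63, 0.66 and 0.76 in anti-thrombin mice 1, 2 and 3. Every anti-thrombin mouse was above every saline mouse, and the treated mice lay within 0.13 of each other while the saline mice spanned 1.01. The mean was -0.33 ± 0.58 (SD, n = 3) in saline mice and 0.68 ± 0.07 (SD, n = 3) in anti-thrombin mice, a 2.02-fold difference. The log2 difference was 1.02 (SE 0.27, 95% interval 0.36 to 1.67), with an unadjusted p of 0.00818 and an adjusted p of 0.157 by limma, which did not pass the threshold of 0.05. Of all features tested, 5.21% had a smaller p and 2.60% a larger absolute difference.

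A second, dimmer probe for Tnf gave the same order of groups. Its signal was -1.46, -0.86 and -1.46 in saline mice and -0.45, -0.55 and -0.37 in anti-thrombin mice, again with no overlap. With every probe fitted singly its log2 difference was 0.80 (SE 0.18) by limma, with an unadjusted p of 0.0036 and an adjusted p of 0.15. Saline mouse 2 was the highest saline mouse on both Tnf probes.

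The Il10 signal was -2.47, -1.12 and -2.62 in saline mice and -1.01, -1.25 and -0.55 in anti-thrombin mice. The groups overlapped through saline mouse 2, which lay above anti-thrombin mouse 2, while saline mice 1 and 3 lay below all the treated mice. The mean was -2.07 ± 0.83 (SD, n = 3) in saline mice and -0.94 ± 0.35 (SD, n = 3) in anti-thrombin mice, a 2.19-fold difference. The log2 difference was 1.13 (SE 0.41, 95% interval 0.15 to 2.11), with an unadjusted p of 0.0297 and an adjusted p of 0.196 by limma. Of all features tested, 1.85% had a larger absolute difference and 15.1% a smaller p.

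The calls on Tnf and Il10 turned on saline mouse 2. Without it, the log2 difference of Tnf was 1.35 (SE 0.11, limma adjusted p = 0.0238) and that of Il10 was 1.60 (SE 0.22, limma adjusted p = 0.0277), and both passed. Without that mouse 3421 features passed, against 2 with all 6 mice. It was the saline mouse nearest the treated ones, so these values are no separate support. Leaving out saline mouse 1 or 3, or anti-thrombin mouse 1 or 3, gave Il10 an unadjusted p of 0.0603 to 0.0922 (limma). Tnf kept an unadjusted p under 0.05 in each of those fits.

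**Figure D1:**
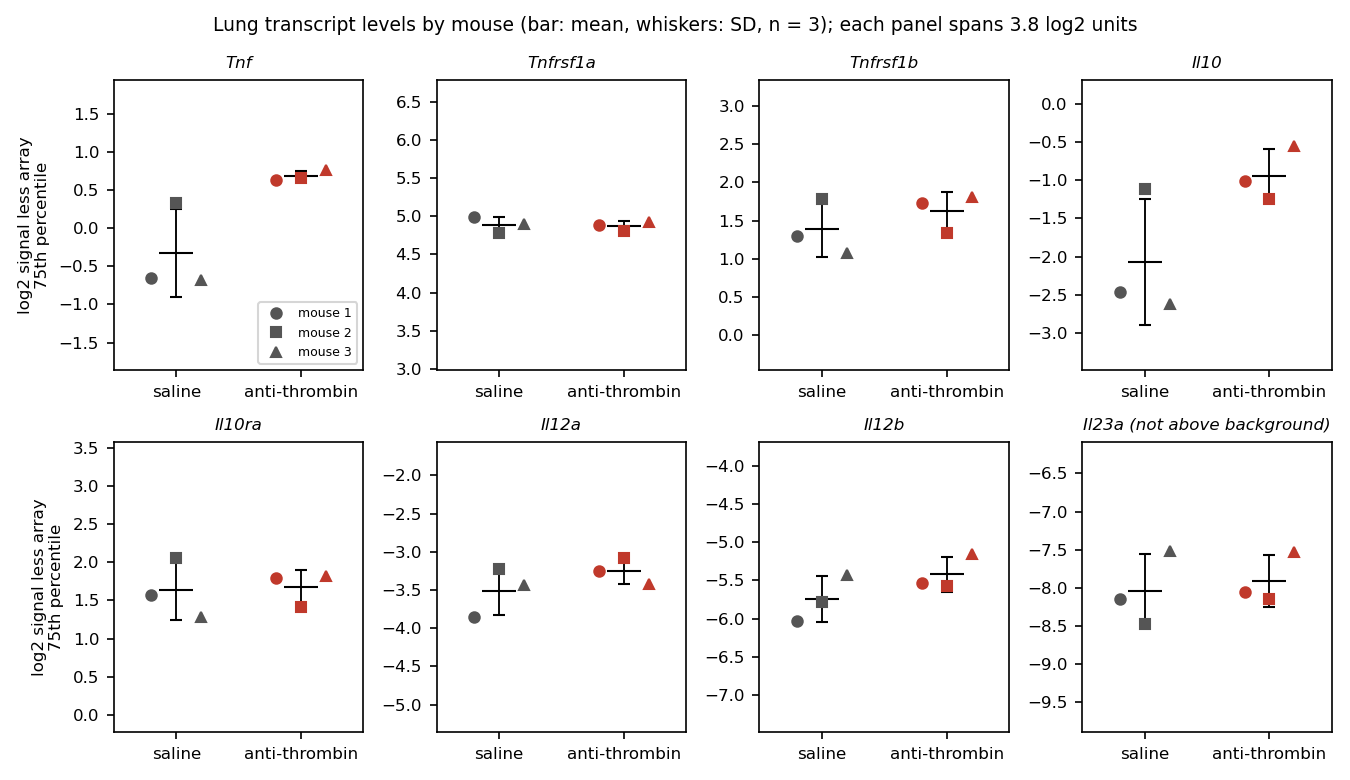
Each panel plots the log2 signal less the 75th percentile of the array (vertical axis) of 1 gene in the 3 saline and the 3 anti-thrombin mice, with symbols for the mouse number, a bar for the mean and whiskers for the SD. In Tnf the 3 treated mice lie between 0.63 and 0.76, above all saline mice, and in Il10 saline mouse 2 at -1.12 lies among the treated mice.

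Of the TNF receptors, Tnfrsf1a, which encodes TNFR1, differed least. Its signal was 4.99, 4.78 and 4.90 in saline mice and 4.89, 4.81 and 4.93 in anti-thrombin mice, with each treated value inside the saline range. The log2 difference was -0.0125 (SE 0.11, limma adjusted p = 0.954), and its 95% interval of -0.27 to 0.24 leaves out a change of the size estimated for Tnf. Its sign turned to positive with normexp background correction, quantile normalisation, median scaling and the mean of its probes, at 0.0055 to 0.045. Its second probe differed by 0.06 (SE 0.15).

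Tnfrsf1b encodes TNFR2, which is found mainly on leukocytes and endothelium. Its signal was 1.30, 1.78 and 1.08 in saline mice and 1.73, 1.34 and 1.81 in anti-thrombin mice. Saline mouse 2 was the highest of its group and anti-thrombin mouse 2 the lowest of its group, and the groups overlapped. The log2 difference was 0.24 (SE 0.22, 95% interval -0.27 to 0.75, limma adjusted p = 0.521). The difference of the TNFR2 transcript less that of the TNFR1 transcript, formed within each array, was 0.25 log2 (exact permutation test, two-sided, p = 0.4, adjusted p = 0.8 over 4 such contrasts). With 3 mice against 3 that test cannot go below 0.1.

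Il10ra, the ligand-binding chain of the IL-10 receptor, followed nearly the same order of mice as Tnfrsf1b. Its signal was 1.58, 2.06 and 1.28 in saline mice and 1.79, 1.42 and 1.81 in anti-thrombin mice, with all treated mice inside the saline range. The log2 difference was 0.0349 (SE 0.22, 95% interval -0.49 to 0.56, limma adjusted p = 0.936), and it turned negative without saline mouse 3 (-0.14), without anti-thrombin mouse 1 (-0.0226) and without anti-thrombin mouse 3 (-0.0349). Its second probe differed by 0.15 (SE 0.25). The ligand transcript Il10 differed by 1.09 log2 more than Il10ra, with p = 0.1, the smallest the exact permutation test allows, and an adjusted p of 0.4.

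**Figure D2:**
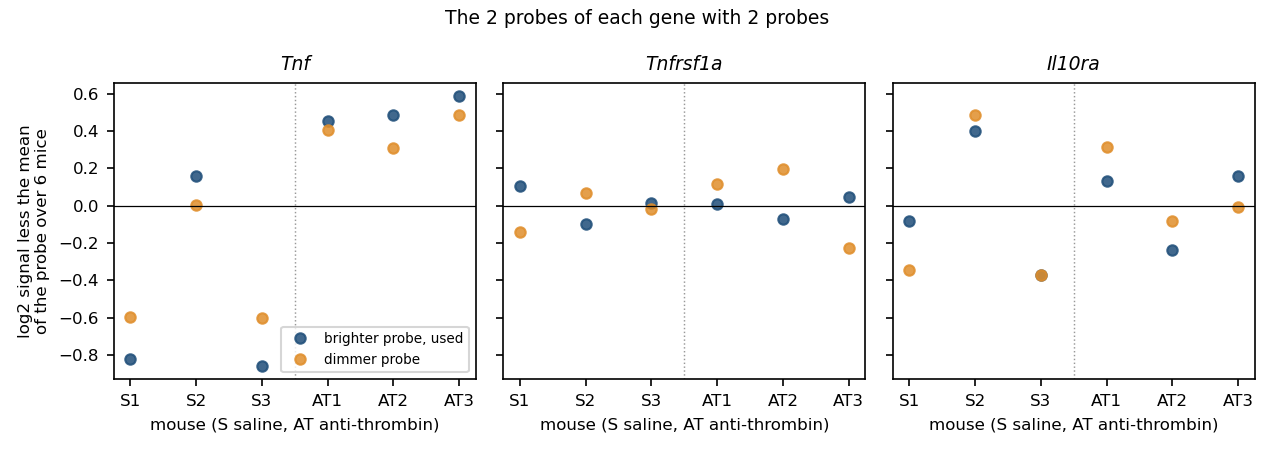
For the 3 genes with 2 probes, the log2 signal of each probe less its own mean over the 6 mice (vertical axis) is plotted for each mouse. The Tnf probes place the mice in the same groups, with differences of 1.02 and 0.80, while the Tnfrsf1a and Il10ra probes scatter around 0 in both groups.

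The interleukin-12 chains were dim. The Il12a signal, for the p35 chain, was -3.85, -3.23 and -3.44 in saline mice and -3.25, -3.08 and -3.42 in anti-thrombin mice. Saline mouse 1 was the lowest and the other 5 mice overlapped, and the difference was 0.26 log2 (SE 0.18, 95% interval -0.18 to 0.70, limma adjusted p = 0.432). It was 0.11 with normexp background correction and 0.43 with array weights.

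The Il12b signal, for the p40 chain that interleukin-12 and interleukin-23 share, was -6.03, -5.78 and -5.43 in saline mice and -5.53, -5.58 and -5.15 in anti-thrombin mice. These are processed intensities between 13.0 and 22.3, and the lowest log2 signal among detected probes ran from -6.86 to -6.30 across arrays. The groups overlapped. The log2 difference was 0.32 (SE 0.19, 95% interval -0.14 to 0.79, limma adjusted p = 0.352), and it was -0.0165 with normexp background correction. Il12b and Il12a differed by 0.0679 log2 in their change (exact permutation p = 0.9, adjusted p = 0.9). The Il23a probe, for the p19 chain, read -8.14, -8.47 and -7.52 in saline mice and -8.05, -8.15 and -7.53 in anti-thrombin mice. It was well above background on 0 of 6 arrays, and no fold or test is given.

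Of the 7 genes tested, 6 had a positive and 1 a negative difference, with a median of 0.26 against -0.0533 over all features. Because the genes were chosen with earlier results of these data known, these counts are a description and not a test. At an unadjusted p under 0.05, 2 of the 7 were higher (limma; 8.73% of all features were) and 0 were lower (12.9% of all features). No overlap between groups was seen for 1 of the 7, Tnf, on the higher side (10.7% of all features) and for 0 on the lower side (18.1%). At an adjusted p under 0.05 there were 0 of 7 by limma, where 0.00616% of features passed. With array weights 1 of the 7 passed, Tnf (limma adjusted p = 0.0498). In that fit 454 of all features passed, so the share of 0.00616% does not apply to it. The difference of Tnf was 0.11 smaller than that of Il10 (exact permutation p = 0.6, adjusted p = 0.8).

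**Figure D3:**
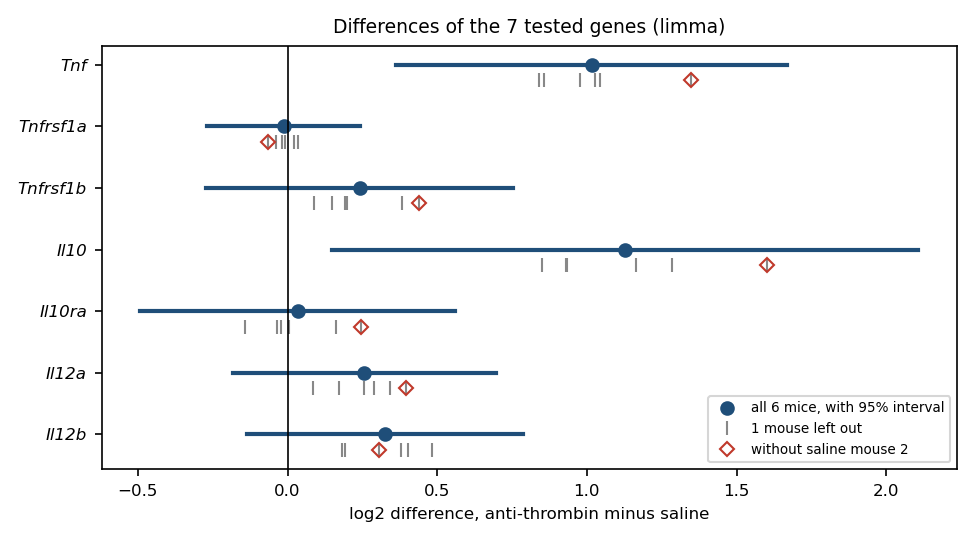
The log2 difference, anti-thrombin minus saline (horizontal axis), is plotted for the 7 tested genes as a point with its 95% interval from limma, with ticks for the fits that leave out 1 mouse and a diamond for the fit without saline mouse 2. The intervals of Tnf (0.36 to 1.67) and Il10 (0.15 to 2.11) lie above 0 and the other 5 include 0.

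The arrays lay in 2 rows of 1 slide, with saline and anti-thrombin mice 1 and 2 in the first row and mouse 3 of each group in the second. Within the first row, 2 against 2, the log2 difference was 0.80 for Tnf and 0.66 for Il10, and in the second, 1 against 1, it was 1.44 and 2.07. The difference of Tnfrsf1b was -0.0038 in the first row and 0.73 in the second, and that of Il10ra was -0.21 and 0.53. Tnf and Il10 were thus positive in each row, Il10ra changed sign, and Tnfrsf1b was near 0 in the first row. Saline mouse 2 lay in the first row and the second held 1 mouse per group, so row and mouse cannot be told apart. The row differences of Il12a were 0.37 in the first row and 0.0217, near 0, in the second. Those of Il12b, from dim signals, were 0.35 and 0.27.

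Markers of leukocytes were measured in the same RNA. In bulk tissue, fewer cells of a type and less RNA per cell cannot be told apart. The summed neutrophil marker level was 961, 1150 and 927.3 in saline mice and 1141, 1084 and 1269 in anti-thrombin mice. Of 11 neutrophil markers 10 were tested, 9 had a positive difference and the median difference was 0.54. At an unadjusted p under 0.05, 4 were higher (limma; 8.73% of all features were). The defining marker Cxcr2 differed by 0.67, Csf3r by -0.0122, and Ly6g had no probe named here. Saline mouse 2 was the highest saline mouse for the summed neutrophil level, for Tnf and for Il10. It was also the highest for the defining marker Cxcr2 (1.78, against 1.55 and 1.07 in saline mice 1 and 3). The same held for Padi4, Camp, Mmp8, Ngp, Ltf, S100a8 and S100a9. Csf3r and Retnlg were highest in saline mouse 1. The trait was not particular to neutrophil markers. Saline mouse 2 also had the highest summed lung marker level of the saline mice (1927, against 1808 and 1890). The same held for alveolar macrophage markers (363.8, against 321.8 and 290.5), monocyte and macrophage markers and B cell markers. It did not hold for T cell, NK, dendritic or mast cell markers or markers of other organs.

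The summed level of monocyte and macrophage markers was 159.7, 188.7 and 160.5 in saline mice and 201.1, 170.2 and 183 in anti-thrombin mice. Of these 9 markers 7 had a positive difference and the median was 0.21, with Adgre1 at 0.64, Cd68 at 0.18 and Csf1r at 0.16. At an unadjusted p under 0.05, 2 were higher (limma; 8.73% of all features were). Saline mouse 2 was the highest saline mouse and anti-thrombin mouse 2 the lowest treated mouse, as for Tnfrsf1b and Il10ra. Medians were -0.0035 for alveolar macrophage markers (8 of 8 tested), -0.0534 for dendritic cell markers (6 of 8, with Xcr1 too dim to test), -0.17 for T cell markers (8 of 8), 0.0034 for NK cell markers (5 of 5), 0.25 for B cell markers (4 of 4) and 0.30 for mast cell markers (4 of 5). At that p, 1 of 8 alveolar macrophage markers was higher (8.73% of all features were). For T cells 1 of 8 markers was lower (12.9% of all features were). Both counts are near those shares. No dendritic, NK, B or mast cell marker passed. The summed B cell level was 5.22, 5.69 and 4.32 in saline mice and 3.91, 3.51 and 8.13 in anti-thrombin mice, so anti-thrombin mouse 3 alone lay above the saline mice. The part of these cells in the differences of Tnf and Il10 was not tested.

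Likeness to other genes was measured as the root mean square difference between profiles over the 6 mice, each centred on its own mean, among 16591 named genes detected on every array. The profiles nearest to Tnf were those of Cfap52 (0.0579 log2), a protein of motile cilia, Vwa7 (0.0654) and Plcb2 (0.0682), a phospholipase C. The nearest to Il10 were Slc2a6 (0.0735), a sugar transporter, Aldh18a1 (0.0765), an enzyme of proline synthesis, and Ankrd52 (0.10). Among the 21 pairs of the 7 tested genes the closest was Tnfrsf1b and Il10ra, at 0.11, followed by Tnf and Il10 at 0.23. The farthest was Tnfrsf1a and Il10, at 0.80.

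The profiles nearest to Tnfrsf1a were Taf1b (0.0126), Nptn (0.0145) and Qpct (0.0171). Those nearest to Tnfrsf1b were Batf (0.0563), a transcription factor of lymphocytes, Prkcb (0.0606) and Nhej1 (0.0623), and those nearest to Il10ra were Pik3r6 (0.0475), Adcy7 (0.0645) and Folr2 (0.0682). For Il12a they were Dnah9 (0.0492), a dynein of motile cilia, Lrrc74b (0.0577) and Ccdc153 (0.0649). For Il12b they were Crabp1 (0.0528), Slc35f3 (0.0664) and Asic4 (0.0744).

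The pathways around the 8 genes were described with 9 lists holding 158 genes, of which 142 were tested. No gene of any list passed the adjusted threshold with all 6 mice (limma), and the counts below are at an unadjusted p under 0.05. Counts with all 6 mice are to be read against the 8.73% of features higher and 12.9% lower. No such share is given for fits that leave out a mouse, so their counts cannot be read against these. Without saline mouse 2 far more features passed, 3421 of them at the adjusted threshold. In the IL-10 receptor signalling and response list, 2 of 13 were higher and 0 lower, with a median difference of 0.12. Without saline mouse 2, 5 were higher and 0 lower, with a median of 0.23, and 1 was higher without saline mouse 1, without saline mouse 3 or without anti-thrombin mouse 3. Il1rn encodes the interleukin-1 receptor antagonist, and its signal was 0.96, 2.09 and 0.81 in saline mice and 2.46, 2.35 and 2.49 in anti-thrombin mice. Its groups did not overlap, and they differed by 1.14 log2 (SE 0.33, limma adjusted p = 0.161), and its other probe differed by 1.34. Bcl3, an atypical inhibitor protein of NF-kB, differed by 0.82 (SE 0.28, limma adjusted p = 0.187), also without overlap. The kinase gene Tyk2 differed by 0.39 (SE 0.17). Stat3, the factor that carries the IL-10 signal, differed by -0.24 (SE 0.12) on its brighter probe and by 0.32 (SE 0.13) on another, so its probes disagreed in sign.

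In the list of interleukin-12 family partners, receptors and signalling, 2 of 9 were higher and 1 lower, with a median of 0.25 (0.23 without saline mouse 2, with 3 higher and 1 lower). Il12rb1, the receptor chain that binds the p40 chain, had a signal of -1.81, -2.08 and -2.18 in saline mice and -1.12, -1.47 and -1.23 in anti-thrombin mice. The groups did not overlap and saline mouse 2 lay within its group. The difference was 0.75 (SE 0.15, limma unadjusted p = 0.00172, adjusted p = 0.151). Ebi3, the partner chain of interleukin-27, differed by 0.65 (SE 0.20, limma adjusted p = 0.167). Jak2, a kinase at the interleukin-12 receptor, differed by -0.30 (SE 0.10, limma adjusted p = 0.181), with -0.0732 on its other probe, and Il27ra, a chain of the interleukin-27 receptor, by 0.76 (SE 0.33).

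Among genes of the response to interleukin-12 and interleukin-23, 0 of 12 were higher and 0 lower, with 11 positive differences and a median of 0.21. That balance rested on single mice: without anti-thrombin mouse 3, 6 were positive and 6 negative, with a median of 0.0148, and without saline mouse 3 the median was 0.0689. Csf2, the myeloid growth factor GM-CSF, ran from -0.68 to 1.14 in saline mice and from 0.56 to 1.24 in anti-thrombin mice, with a difference of 0.58 (SE 0.45). Il21 differed by -0.33 (SE 0.19) and Il22 by 0.19 (SE 0.11), and by -0.16 and -0.0212 with normexp background correction. Il17a and Il17f were too dim to test.

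The signalling complex of the TNF receptors and its brakes had 0 of 27 genes higher and 1 lower, with a median of -0.0288. Leaving out saline mouse 2 gave 2 higher and 4 lower, and leaving out saline mouse 1, saline mouse 3, anti-thrombin mouse 2 or anti-thrombin mouse 3 gave 0 of each (limma). The lower gene was Sharpin, a subunit of the linear ubiquitin ligase, at -0.29 (SE 0.12, limma adjusted p = 0.224), and its other probe differed by -0.0802 (SE 0.12). Tab1, an adaptor of the kinase TAK1, differed by -0.25 (SE 0.11). The deubiquitinase gene Cyld differed by -0.39 (SE 0.18) on its brightest probe, and its other probes gave 0.0737 and -0.50. Mlkl, the effector of necroptosis, differed by 0.40 (SE 0.20).

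Genes of TNF shedding and cytokine mRNA control had 1 of 21 higher and 3 lower, with a median of -0.0738. Without saline mouse 2, 3 were higher and 4 lower, with a median of -0.0561, and without saline mouse 1, saline mouse 3, anti-thrombin mouse 2 or anti-thrombin mouse 3, 1 was higher and 1 lower. Dusp1, the phosphatase that switches off p38, had a signal of 5.83, 5.93 and 5.87 in saline mice and 5.51, 5.27 and 4.81 in anti-thrombin mice. The saline mice were close together and above all treated mice, differing by -0.68 log2 (SE 0.18, limma adjusted p = 0.157). Elavl1, which encodes the mRNA-stabilising protein HuR, differed by 0.62 (SE 0.19, limma adjusted p = 0.17). Zfp36l2, of the family of mRNA-destabilising zinc finger proteins, differed by -0.40 (SE 0.17), and Timp3, the inhibitor of the TNF-releasing protease ADAM17, by -0.39 (SE 0.16).

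Among transcription factors of these cytokine genes, 3 of 21 were higher and 1 lower, with a median of 0.11. With saline mouse 2 left out, 8 were higher and 0 lower, with a median of 0.24, and without saline mouse 3 the median was -0.0088. Atf3, a stress-induced factor that restrains cytokine genes after LPS, had a signal of -0.23, 1.00 and -0.30 in saline mice and 1.36, 1.39 and 1.81 in anti-thrombin mice. The groups did not overlap and saline mouse 2 lay nearest the treated mice, and the difference was 1.37 log2 (SE 0.36, limma adjusted p = 0.155). Maf, an activator of Il10, differed by 0.49 (SE 0.15, limma adjusted p = 0.17) and was 1.40, 1.39 and 1.44 in saline mice and 2.21, 1.81 and 1.69 in anti-thrombin mice. Nfkbiz, a nuclear cofactor of NF-kB, differed by 0.37 (SE 0.13), and Bhlhe40, a repressor of Il10 in T cells, by -0.29 (SE 0.11).

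Of the other TNF superfamily ligands 1 of 11 was higher and 0 lower, with a median of -0.0014. Without saline mouse 2, 2 were higher and 1 lower, and with any other mouse left out 0 were higher and 0 lower. The higher gene was Tnfsf14, the ligand LIGHT, at 0.42 (SE 0.16, limma adjusted p = 0.211), and Ltb, lymphotoxin beta, differed by 0.65 (SE 0.29). Eda and Tnfsf8 differed by -0.32 (SE 0.23) and -0.33 (SE 0.25), and Tnfsf8 by -0.16 with normexp background correction. Of the other TNF receptor superfamily members 1 of 23 was higher and 4 lower, with a median of 0.0541. When saline mouse 2 was left out, 1 was higher and 2 lower. The median turned to -0.0107 when saline mouse 3 was left out and to -0.0587 when anti-thrombin mouse 3 was. Eda2r, a receptor of ectodysplasin, had the smallest p of all listed genes, with a signal of -4.52, -4.39 and -4.64 in saline mice and -5.43, -5.32 and -5.21 in anti-thrombin mice. Its difference was -0.80 (SE 0.12, limma unadjusted p = 0.000314, adjusted p = 0.151), and -0.27 (SE 0.10, unadjusted p = 0.0247) with normexp background correction. Ltbr, the lymphotoxin beta receptor, differed by -0.30 (SE 0.11) and Tnfrsf19 by -0.30 (SE 0.11). Tnfrsf14, a receptor of LIGHT, differed by 0.38 (SE 0.12), with -0.17 on its other probe and 0.19 with normexp background correction.

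Of the other interleukin-10 family genes 0 of 7 were higher and 2 lower, with a median of -0.0947. Without saline mouse 2, 0 were higher and 2 lower, and without anti-thrombin mouse 3 or saline mouse 1 none passed that p in either direction (limma). Il20rb, a receptor chain for interleukins 19, 20 and 24, differed by -0.53 (SE 0.19, limma adjusted p = 0.191), and Ifnl3, an interferon lambda, by -0.29 (SE 0.11, limma adjusted p = 0.199). Il22ra2, the soluble interleukin-22 binding protein, differed by -0.33 (SE 0.22). Without saline mouse 2, 8 of the listed genes named here passed the adjusted threshold (limma), in a fit where 3421 of all features passed. Listed genes were named for the smallest p in their list in these same data, so this count is no separate support. The 8 were Il1rn, Bcl3, Ebi3, Elavl1, Ltb and Atf3 on the higher side, at 0.82 to 1.79, and Il20rb and Eda2r on the lower side, at -0.71 and -0.74.

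**Figure D4:**
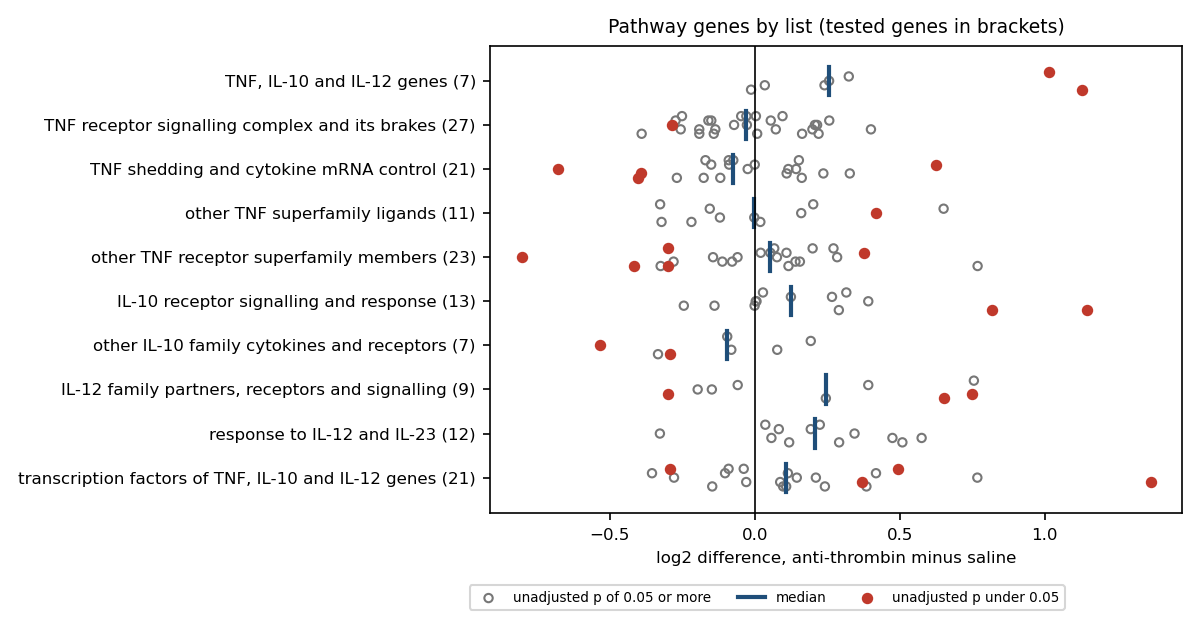
Each point is the log2 difference, anti-thrombin minus saline (horizontal axis), of 1 tested gene, arranged by list, with filled points for an unadjusted p under 0.05 (limma) and a bar for the median of the list. Tnf and Il10 lie at 1.02 and 1.13, Il1rn at 1.14 and Atf3 at 1.37, and Eda2r at -0.80 is the lowest.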

How the data were processed

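Lung RNA of 3 saline and 3 anti-thrombin mice was hybridised to 1-colour Agilent arrays, with groups and mouse numbers from the sample titles. The deposited scanner files hold background-subtracted spot intensity values, made with Agilent Feature Extraction 10.7.3.1 per the file headers (9.1 per the submitters' processing notes). The deposited value table holds log2 values, which equal the scanner values less a constant per probe of unknown origin and a shift per array, within 0.01 for 100% of probes. Its column medians ran from -0.0369 to 0.0763.

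Spots of a probe were averaged as log2 intensity, outlier and control spots were left out, and the 75th percentile of each array was subtracted. Probes (56605) were named through RefSeq transcripts of GRCm38.p6 (32994 named). The brightest probe stood for each symbol, and features well above background on at least 3 arrays were tested by two-sided moderated contrasts (limma 3.58.1, R 4.3.3), and p-values were adjusted over 32447 features by Benjamini-Hochberg. Normexp used the median pixel signal. The 8 genes and the lists were chosen with earlier results of these data known. Named genes were the 8, the 4 with the smallest p per list, and the 3 nearest profiles per gene. A gene that this rule took is not reported here. Tests were tried on simulated data. The number of arrays limits the precision. Figures were drawn with matplotlib 3.10.9. Alternatives were other background corrections, scalings, filters and probe rules, the value table, other variance settings, blocks, and leaving out each mouse.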

Additional observations from a re-analysis of the deposited data

How the results depend on the processing

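Features past the adjusted threshold numbered 2 with all mice and 0 to 3421 with 1 mouse left out (3421 without saline mouse 2). They numbered 1 with normexp, quantile normalisation, median scaling, no filter, detection on all arrays, every probe singly, trended and robust variance or the slide row as a block, 454 with array weights and 0 with the first slide row alone. Of the 8 genes, 1 passed with array weights and 0 to 2 with 1 mouse left out. The count higher at an unadjusted p under 0.05 was 2 with all mice, 1 to 2 with 1 mouse left out and 0 in the first row alone, a setting chosen after seeing the data, as were those for the contrasts of gene pairs.

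Mouse numbers did not pair the mice (correlations of deviations -0.0093, -0.16 and -0.28). With the mouse number as a block 0 features passed, and the adjusted p was 0.302 for Tnf and 0.319 for Il10.

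Over 19 alternatives Tnf ran from 0.80 to 1.35 (adjusted p 0.0238 to 0.552) and Il10 from 0.66 to 1.60 (0.0277 to 0.64), positive in each. Signs turned for Tnfrsf1a (0.0177 with normexp, 0.045 with quantile, 0.0055 with median scaling, 0.0231 with the mean of probes, -0.0655 to 0.036 with 1 mouse left out), Il12b (-0.0165) and Il22 (-0.0212) with normexp, Stat3 with the mean of probes (0.0379), Il10ra (-0.14 to 0.24 with 1 mouse left out), and in the first row alone for Tnfrsf1b (-0.0038), Il10ra (-0.21) and Csf2 (-0.0942). The cause was not tested. Signal near background limits Il12b, and Il23a could not be tested.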
